A study of Mus musculus with 15 samples.

Results

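The cytosolic ribosomal protein genes encode the protein parts of the 2 subunits of the ribosome. They were taken by symbol from 3 tables of normalized counts: every large subunit name (Rpl followed by a number, or Rplp0 to Rplp2) and every small subunit name (Rps followed by a number, or Rpsa) with a mean of at least 100 over the libraries of a table, without the names marked as pseudogenes (-ps). Of 55291 genes in each table, 87 names matched and 79 reached the mean, the same 79 in all 3 tables, 47 of the large and 32 of the small subunit. The nearest member above that mean was Rps10, at a mean of 207 in the DON table, and the nearest matching name below it there was Rpl6l, at 47.3. The large subunit gene Rpl24 was also left out, at 26.1 in the DON, 17.4 in the Gln-free and 52.9 in the tumor table. It overlaps Gm28037 on the same strand, and whether its reads were assigned elsewhere was not tested. The rule itself uses names and levels, but it was set with earlier results of these data known.

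Bulk RNA-seq of HY19636 cells compared 3 control cultures with 3 cultures given 25 µM DON for 24 h and 3 cultures kept without Gln for 24 h. DON is a Gln analog that blocks Gln-using enzymes. Tumors grown from the same cells in the pancreata of B6J mice were sequenced from 3 mice treated with vehicle and 3 treated with DRP-104, from which DON is released. HY19636 is 1 murine PDAC line, isolated from a genetically engineered B6 mouse whose alleles, p53L/+ and Ptf1aCre+ among them, are shared by all 5 groups. The labels do not say whether cultures of a group were grown separately, so p-values among cells measure the spread between these libraries, which may be technical.

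Ribosomal proteins are made in matched amounts and join ribosomal RNA in the nucleolus to form the large subunit, which makes the peptide bond, and the small subunit, which reads the mRNA. Most of their mRNAs begin with a run of pyrimidines at the cap, the 5′ terminal oligopyrimidine (TOP) tract, through which mTORC1 and LARP1 control their translation and stability. Several members have a paralog that can take their place in the ribosome or that works in its assembly.

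The bases around the annotated start are shown for members that the results turn on, to set the pyrimidine run of each beside its change. RefSeq entries (build GRCm38.p6) matched 59 of the 79 members. Where a gene had several entries, the one with the longest run of C and T bases was kept. This held for members and for all genes alike, so shares and medians by run rest on that choice. Each line gives the 10 bases before and the 20 bases from the start, 5′ to 3′ on the transcribed strand. The longest run of C and T bases is in capitals, the first of them where runs tie. The first 4 belong to members that were high after DON, the next 3 to members that were low without Gln, and the last 3 to members that were lower after DON than without Gln.
Rpl22l1 (chr3:28805498-28805527, + strand): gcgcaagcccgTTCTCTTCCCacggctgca
Rpl22 (chr4:152324426-152324455, + strand): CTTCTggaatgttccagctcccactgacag
Rps6 (chr4:86857348-86857377, - strand): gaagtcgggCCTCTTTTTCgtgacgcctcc
Rplp0 (chr5:115559457-115559486, + strand): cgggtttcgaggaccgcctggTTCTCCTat
Rpl41 (chr10:128549149-128549178, - strand): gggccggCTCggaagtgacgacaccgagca
Rpl37a (chr1:72711250-72711279, + strand): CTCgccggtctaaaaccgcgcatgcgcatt
Rps26 (chr10:128626487-128626516, - strand): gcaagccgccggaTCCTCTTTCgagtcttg
Rpl15 (chr14:18270967-18270996, - strand): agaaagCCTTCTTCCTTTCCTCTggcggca
Rps10 (chr17:27635225-27635254, - strand): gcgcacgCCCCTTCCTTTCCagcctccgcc
Rpl7l1 (chr17:46782637-46782666, - strand): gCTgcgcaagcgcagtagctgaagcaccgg

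A run of at least 8 C or T bases lay in this window of 24 of the 59 members, or 40.7%, against 13.0% of all 27025 genes with an entry. Among the printed windows the run was longest in Rpl15, at 17 bases, and shortest in Rpl7l1, at 2. It was 5 in Rpl22 and 3 in Rpl41 and Rpl37a. In Rpl22, Rpl41, Rpl37a and Rpl7l1 the marked run lies wholly before the annotated start. The bases after the start were found in a GENCODE transcript of the gene for 7 of the 10 windows, and not for Rpl22, Rps6 and Rpl37a. The Rpl22 window lies before the start that the FPKM table gives for this gene, position 152325742. The annotated start decides where the window falls, and a window without such a run says only that these letters are not in it.

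Libraries held 25.2 M to 48.2 M reads from cells and 16.3 M to 20.7 M from tumors. Among genes with 1 to 20 reads, 69.6% to 72.7% of counts were even in cells and 41.9% to 46.5% in tumors. Depths of cells and tumors may thus not be on the same scale, and the cause was not tested. Both culture comparisons rest on the same 3 control libraries, whose column headings carry the title of the vehicle tumors. They were taken as control cells because both tables are named for that comparison and hold treated cells otherwise, and their numbers, 1 to 3, only name them. Summed epithelial tumor cell markers (10 genes such as Epcam, Krt8 and Krt19) stood at 12700 to 15130 RPM (reads scaled to the total of the library) in the control cultures, 4104 to 4309 after DON, 5483 to 6090 without Gln and 6675 to 9759 in the tumors. Summed fibroblast markers were 15.3 to 19.0 RPM in the control cultures, 1607 to 3415 in the vehicle tumors and 787 to 1260 in the DRP-104 tumors. Between the tumor groups, 0 of these 8 genes passed the test. Of the 10 epithelial markers, 9 fell and 1 rose after DON, where 34.7% and 33.3% of all genes tested did. Without Gln 10 fell, as did 34.9% of all genes tested. The part of this in the values of the ribosomal protein genes was not tested.

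After DON, ribosomal protein genes took up a larger part of the transcriptome in all 3 libraries. Their share of all reads was 8.51%, 7.54% and 7.00% in the control cultures, 11.3%, 11.4% and 10.6% after DON, and 7.75%, 7.92% and 8.21% without Gln. Every DON library lay above every control and Gln-free library, and the Gln-free libraries lay within the range of the controls. The mean share was 7.68% ± 0.765 in controls, 11.1% ± 0.436 after DON and 7.96% ± 0.233 without Gln (SD, n = 3), a ratio to controls of 1.44 after DON and 1.04 without Gln.

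Both subunits contributed, and the large one gained more reads. Reads in large subunit genes went from 4.36% ± 0.404 to 6.54% ± 0.266 of the library after DON, and reads in small subunit genes from 3.32% ± 0.356 to 4.55% ± 0.193 (SD, n = 3). The ratio of large to small subunit reads was 1.29 to 1.33 in controls, 1.35 to 1.37 without Gln and 1.43 to 1.44 after DON, with no overlap between the 3 groups. Members weigh in this ratio by their reads, so the most abundant ones count most. Among these, Rplp0 and Rpl3 rose after DON by 0.65 and 0.98 on the log2 scale, while Rps2 had -0.15 and did not pass the test. The ratio need not hold for most members of a subunit, and it was not computed without the abundant ones. In the tumors the ratio was 1.35 to 1.38 in 5 libraries and 1.22 in DRP-104 tumor 1. Names marked as pseudogenes (-ps) held 0.0121% to 0.0204% of the reads of any library, so few reads were assigned to these names. Copies annotated under other symbols were not counted.

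**Figure D1:**
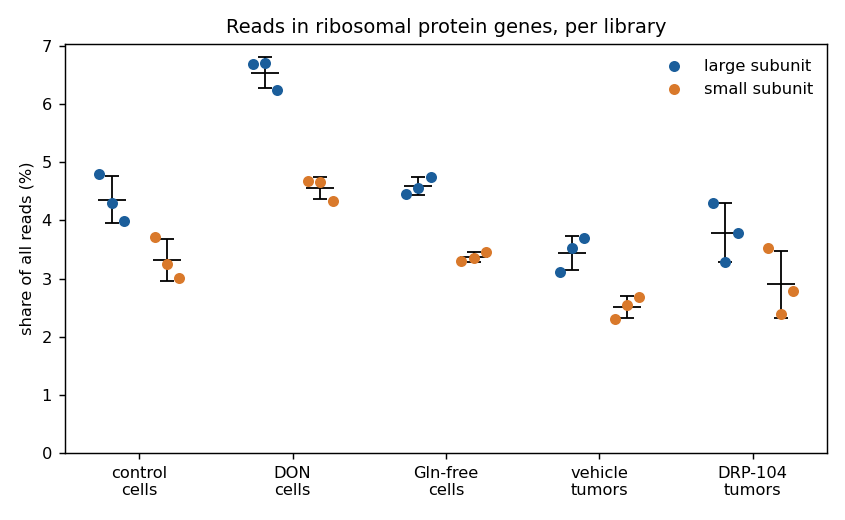
Share of all reads of a library (%, linear axis from 0) in large subunit (blue) and small subunit (orange) ribosomal protein genes, by group; points are libraries and black marks the mean ± SD (n = 3). The DON libraries, at 6.23% to 6.70% for the large and 4.33% to 4.67% for the small subunit, sit above all other libraries.

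Levels per gene length differed widely between members. In the deposited FPKM table, which covers tumors only, the median member stood at 598 FPKM in vehicle tumors, with 508 for the large and 634 for the small subunit. The highest were Rplp1, a stalk protein of the large subunit (2005 ± 162 FPKM), Rps12 (1909 ± 104.5), the stalk base Rplp0 (1881 ± 121), Rps2 (1562 ± 50.9) and Rps26, which lines the mRNA exit (1447 ± 91.2; all SD, n = 3). The ranges of the first 3 over libraries overlapped, and so did those of Rps2 and Rps26. The lowest were Rpl35 (25.0 ± 2.23), Rpl23a (29.2 ± 1.68), the Rpl7 paralog Rpl7l1 (34.2 ± 0.797), Rps15a (64.3 ± 2.69) and the Rps27 paralog Rps27l (97.6 ± 3.66), whose ranges did not overlap.

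The 2 kinds of table disagreed on 4 members. For 75 of the 79, the FPKM in vehicle tumors lay within 2 times of 0.807, the median ratio of FPKM to RPM per kilobase computed from the count tables. The ratio was 68.2 for Rps10 (645 FPKM against 9.46 RPM per kilobase) and 22.2 for Rpl13a (809 against 36.4). It was 0.036 for Rpl23a and 0.0708 for Rpl35. Rps10 and Rpl13a each overlap another annotated gene on the same strand (RPS10-NUDT3 and Gm45713). So do Rpl13 (Gm20388) and Rpl19 (Gm11629), whose ratios were 0.802 and 0.935, and 25 of the 79 members overlap some gene other than a small RNA. How reads in shared bases were assigned is not given in the sources used here, so the changes of Rps10, Rpl13a, Rpl23a and Rpl35 are less certain on this ground. For the rest the agreement is on levels in vehicle tumors only. The median change with DRP-104 had opposite signs in the 2 kinds of table, as given below.

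**Figure D2:**
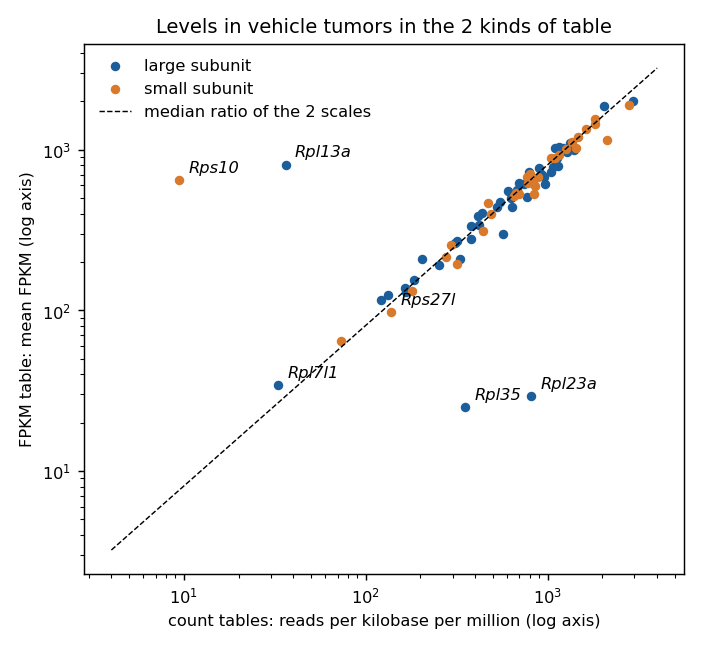
Levels of the 79 ribosomal protein genes in vehicle tumors: RPM per kilobase from the count tables (x, log axis) against mean FPKM (y, log axis; n = 3 libraries each). Points follow the dashed line of the median ratio, 0.807, except Rps10 and Rpl13a above it and Rpl23a and Rpl35 below it.

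The first comparison asked how DON changed these genes in cultured cells. After DON, 54 of the 79 members rose and 1 fell (adjusted p under 0.05), while 33.3% of all 13556 genes tested rose and 34.7% fell. Of the large subunit 33 of 47 rose and 1 fell, and of the small subunit 21 of 32 rose and 0 fell. The median member was 0.40 higher on the log2 scale, 0.45 for the large and 0.36 for the small subunit, beside 0.02 over all genes tested. In 52 members every DON library lay above every control library, which held for 35.3% of all genes tested. The one that fell was Rpl7l1, below all controls, as were 36.6% of all genes tested.

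Rpl22l1 rose most. It encodes the paralog of the large subunit protein Rpl22. Normalized counts were 1076, 843 and 1123 in controls and 3588, 3879 and 3506 after DON. The groups stood far apart, and the log2 fold change was 1.86 ± 0.113 (SE, adjusted p = 4.97e-09). Its partner Rpl22 went from 11692, 9877 and 10142 to 16435, 16522 and 14745, a log2 fold change of 0.59 ± 0.0952 (adjusted p = 8.19e-05). Per length, Rpl22 stood at 156 ± 13.0 RPM per kilobase in controls, 259 ± 14.7 after DON and 124 ± 0.946 without Gln, and Rpl22l1 at 62.9 ± 11.5, 250 ± 12.6 and 152 ± 6.32 (SD, n = 3). An antisense gene, Gm33051, overlaps Rpl22l1, and without known strand use its reads cannot be told apart from those of Rpl22l1.

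Rpl3, a core protein near the peptidyl transferase center, held 57069, 50884 and 43509 normalized counts in controls and 100576, 103748 and 92084 after DON. Each DON value was higher than each control value, with a log2 fold change of 0.98 ± 0.119 (adjusted p = 5.6e-06). Rpl10, which joins the large subunit late in its assembly, went from 52493, 48159 and 41425 to 86811, 82140 and 79690 (0.81 ± 0.112, adjusted p = 1.89e-05). Rpl5 and Rpl11, which carry 5S ribosomal RNA into the large subunit and can bind Mdm2, rose by 0.67 ± 0.0973 and 0.47 ± 0.101. The stalk base Rplp0 rose by 0.65 ± 0.139, from 119290 to 162115 normalized counts in controls to 206453 to 234546 after DON.

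In the small subunit the largest rises were those of Rps6, Rps9 and Rps18. Rps6, the ribosomal substrate of S6 kinase, held 31740, 26874 and 24133 normalized counts in controls and 47383, 47111 and 42847 after DON. The groups did not overlap, and the log2 fold change was 0.74 ± 0.111 (adjusted p = 4.44e-05). Rps9 and Rps18, the latter at the head of the subunit, rose by 0.73 ± 0.117 and 0.70 ± 0.119.

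Members at the low end of the DON comparison mostly did not pass the test. Rpl7l1, a nucleolar paralog of Rpl7 known from large subunit assembly, fell: it held 5882, 5413 and 5220 normalized counts in controls and 3985, 3603 and 3724 after DON. All DON libraries were below all controls, with a log2 fold change of -0.55 ± 0.088 (adjusted p = 8.27e-05), while Rpl7 itself rose by 0.67 ± 0.105. Log2 fold changes of Rps2 (-0.15), Rpl15 (-0.09), Rps25 (-0.07), Rps21 (-0.01) and Rpl37a (0.03) had adjusted p of 0.358, 0.461, 0.602, 0.944 and 0.818, and their groups overlapped. Rps10, on 166 to 247 normalized counts in the 6 libraries, had 0.20 ± 0.179 (adjusted p = 0.343).

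Without control 3, 51 members rose and 4 fell, beside 71.3% of all genes called in either direction. When the reads of a library were scaled to its total, 70 rose and 1 fell, beside 69.8% of all genes. The median of all genes then moved from 0.02 to 0.17.

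The second comparison asked what 24 h without Gln did to the same genes. Without Gln, 24 of the 79 members rose and 21 fell, against 34.5% and 34.9% of all 13390 genes tested. In the large subunit 16 of 47 rose and 13 fell, and in the small subunit 8 of 32 rose and 8 fell. The median was -0.07 on the log2 scale, 0.04 for the large and -0.07 for the small subunit, beside 0.01 over all genes tested. The members spread widely around it, from -1.47 to 1.18.

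The split of directions depended on the scaling and on the controls. With quantile normalization 40 members rose and 14 fell, with RPM 33 rose and 18 fell, and with TMM factors 24 rose and 26 fell. Of all genes tested, 69.7%, 69.6% and 69.3% were called in either direction under these scalings. Without control 3 the counts were 24 and 39, and without control 1 they were 31 and 18. The shares of all genes called were then 72.4% and 64.7%. RPM scaling moved the median of all genes by 0.105 on the log2 scale, and the other scalings by less than that.

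Rpl37a and Rpl41 fell most without Gln. Rpl37a, a zinc-binding protein of the large subunit, held 23954, 21559 and 17007 normalized counts in controls and 7208, 7969 and 7191 without Gln. Rpl41, the smallest ribosomal protein, went from 49593, 41989 and 34429 to 15310, 15568 and 15722. The groups were far apart in both, with log2 fold changes of -1.47 ± 0.114 (adjusted p = 1.73e-07) and -1.42 ± 0.115 (adjusted p = 2.65e-07). After DON the same members stood at 0.03 ± 0.119 and 0.22 ± 0.129, neither past the threshold.

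In the small subunit Rps26 and Rps4x were among the lowest. Rps26 held 35220, 32634 and 26963 normalized counts in controls and 16701, 18465 and 20292 without Gln. No Gln-free library reached the lowest control, and the log2 fold change was -0.77 ± 0.11 (adjusted p = 4.04e-05). Rps4x fell by 0.56 ± 0.108 on the same scale, and Rpl8, a large subunit protein near the peptidyl transferase center, by 0.62 ± 0.108.

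Other members rose without Gln. Rpl22l1 again stood first in the large subunit, at 1014, 796 and 1083 normalized counts in controls and 2136, 2283 and 2097 without Gln. The groups did not overlap, and the log2 fold change was 1.18 ± 0.116 (adjusted p = 1.4e-06). Rpl22 moved the other way, from 11018, 9330 and 9781 to 7503, 7531 and 7324 (-0.43 ± 0.084, adjusted p = 0.000561). Rpl7, Rps6, Rpl23 and Rps27a, the last made as a fusion with ubiquitin, rose by 0.61 ± 0.0928, 0.61 ± 0.0988, 0.57 ± 0.0867 and 0.56 ± 0.091. Rpl5 rose by 0.57 ± 0.0877, and Rpl7l1 by 0.27 ± 0.0801 (adjusted p = 0.0094).

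Rps10, which lies near the mRNA entry of the small subunit, had the largest rise of its subunit, from 220, 171 and 160 to 319, 349 and 319 normalized counts. The log2 fold change was 0.85 ± 0.158 (adjusted p = 0.000372). It rests on the low counts that disagreed with the FPKM table in tumors.

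**Figure D3:**
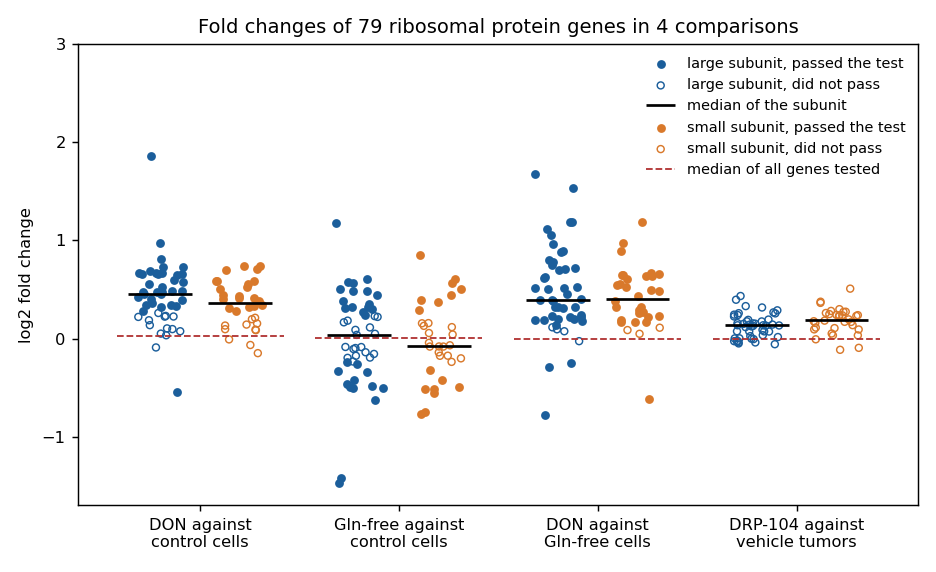
Log2 fold changes (y) of the 79 ribosomal protein genes in 4 comparisons (x), large subunit in blue and small in orange; filled points had an adjusted p under 0.05, black lines are subunit medians and red dashed lines the median of all genes tested. The medians are 0.45 and 0.36 after DON, 0.04 and -0.07 without Gln, 0.39 and 0.40 for DON against Gln-free cells, and 0.13 and 0.19 in tumors, where no point is filled.

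The third comparison set the 2 treatments of the cells against each other, on reads of the 9 culture libraries scaled together, so that it did not rest on the control values themselves. In DON-treated cells 68 of the 79 members were higher than in Gln-free cells and 4 were lower, against 33.8% and 35.0% of all 13383 genes tested. The counts were 40 and 3 of 47 in the large subunit and 28 and 1 of 32 in the small subunit. The median difference was 0.39 on the log2 scale in the large and 0.40 in the small subunit, beside -0.01 over all genes tested. In 71 members every DON library lay above every Gln-free library, as in 35.7% of all genes tested. With quantile normalization 57 were higher and 8 lower, beside 68.3% of all genes called in either direction.

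The differences were largest for Rpl41 and Rpl37a. Rpl41 held 50980, 52218 and 47200 normalized counts after DON and 15486, 15756 and 15908 without Gln. Rpl37a held 21959, 21972 and 21586 after DON and 7291, 8065 and 7276 without Gln. Both groups were narrow and far apart, with log2 fold changes of 1.67 ± 0.0539 (adjusted p = 8.82e-12) and 1.53 ± 0.055 (adjusted p = 1.99e-11). Rplp0 followed at 1.19 ± 0.0643 in the large subunit, and Rps4x (0.98 ± 0.06) and Rps26 (0.89 ± 0.0676) were among the highest of the small subunit.

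Some members passed the test against controls in opposite directions under the 2 treatments. Among those with large differences between DON and Gln-free cells were Rplp0 (0.65 after DON and -0.50 without Gln), Rpl36 (0.58 and -0.51), Rpl22 (0.59 and -0.43), Rps4x (0.39 and -0.56) and Rpl11 (0.47 and -0.46). Between the treatments themselves they differed by 0.96 (Rpl11) to 1.19 (Rplp0) on the log2 scale. Rplp0 held 93039, 97463 and 99866 normalized counts without Gln and 226859, 231193 and 202953 after DON. With quantile normalization Rplp0 was 0.22 above controls without Gln (adjusted p = 0.0153), so its fall there depended on the scaling.

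The 4 members lower in DON-treated than in Gln-free cells in this fit were Rpl7l1, Rps10, Rpl15 and Rpl4. Rpl7l1 held 3912, 3552 and 3661 normalized counts after DON and 6629, 6374 and 6105 without Gln. No DON library reached a Gln-free one, and the log2 fold change was -0.78 ± 0.0592 (adjusted p = 2.76e-08). Rps10 differed by -0.62 ± 0.132, on 202 to 353 normalized counts. Rpl15, at the core of the large subunit, and Rpl4, which lines its exit tunnel, differed by -0.29 ± 0.0586 and -0.25 ± 0.0579. Rps12 and Rps16, at the low end of the small subunit, had 0.09 and 0.05 with adjusted p of 0.18 and 0.468.

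**Figure D4:**
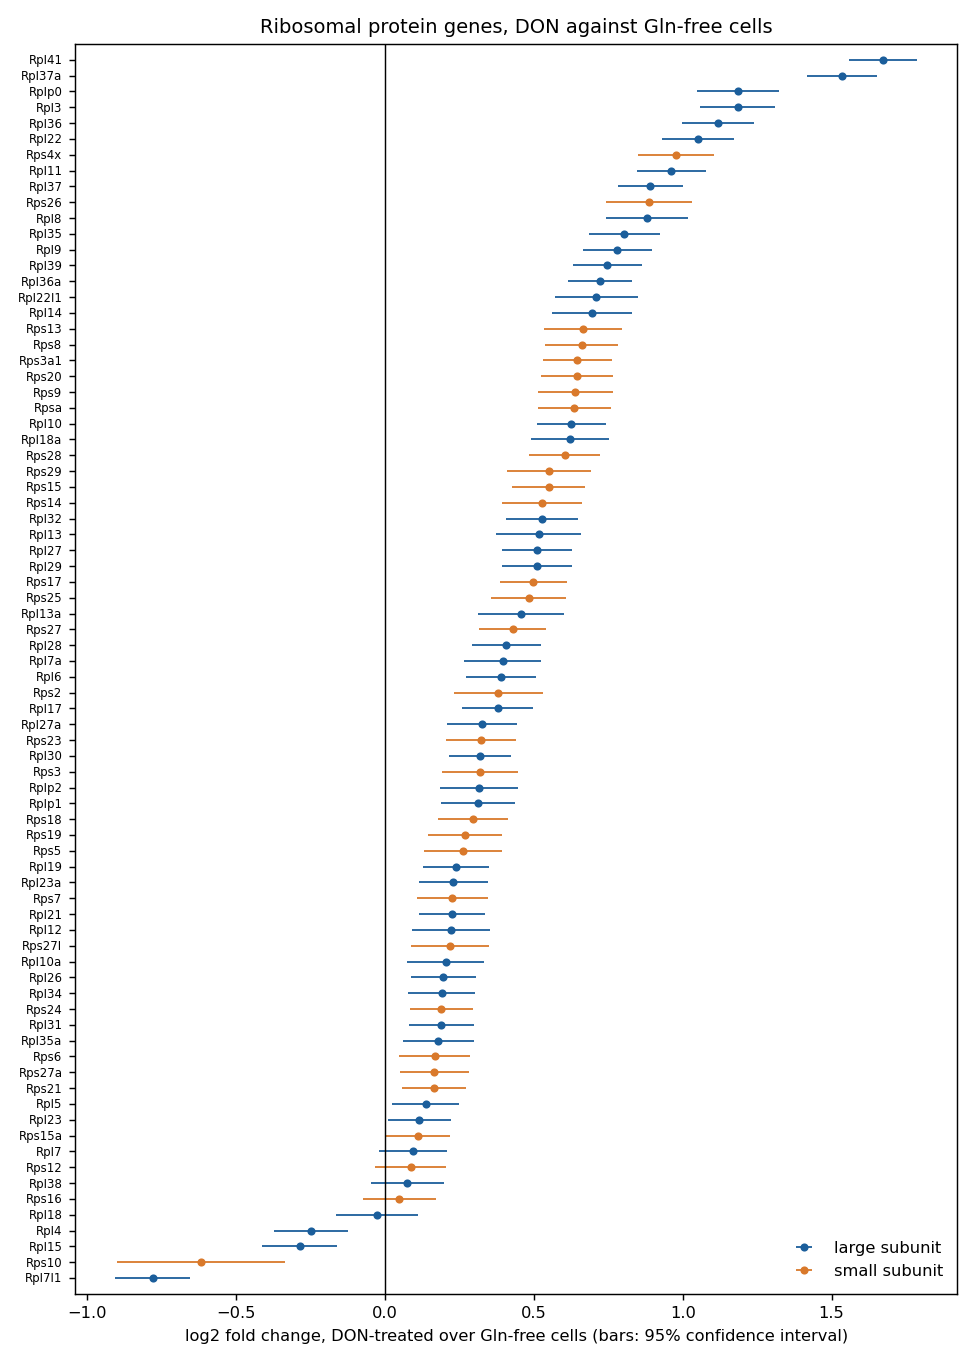
Log2 fold change of DON-treated over Gln-free cells (x) for 78 of the 79 ribosomal protein genes (y, ranked), with 95% confidence intervals (limma, 3 libraries a group), large subunit in blue and small in orange. Rpl41 and Rpl37a lead at 1.67 and 1.53, and 4 members lie below 0 with intervals that leave it out.

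Other paralog pairs are given side by side, since differences within a pair were not tested. Rps27 rose after DON (0.32 ± 0.11, adjusted p = 0.0207), and Rps27l had 0.14 ± 0.0961 (adjusted p = 0.204). Without Gln they had -0.08 and -0.04, with adjusted p of 0.501 and 0.694. Rpl39 had 0.23 ± 0.111 after DON (adjusted p = 0.0808) and fell by 0.48 ± 0.106 without Gln, and its paralog Rpl39l was at 0 in all 9 culture libraries. Rpl36a rose by 0.45 ± 0.0955 after DON and fell by 0.24 ± 0.0875 without Gln. Its paralog Rpl36al, outside the member names, held 28.6 to 97.9 normalized counts and rose by 1.02 ± 0.304 after DON.

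**Figure D5:**
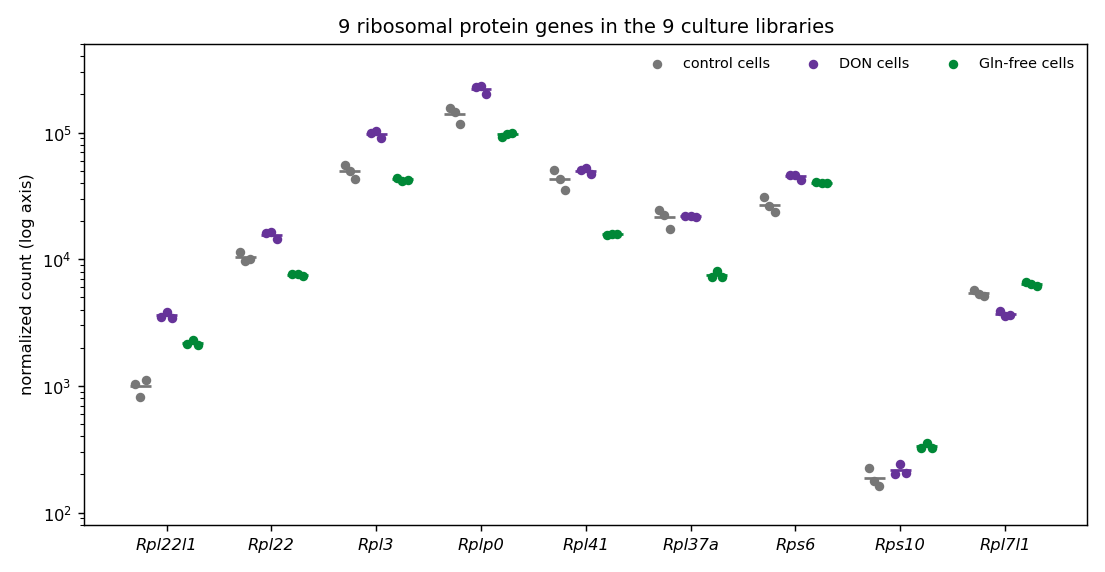
Normalized counts (y, log axis) of 9 ribosomal protein genes (x) in the 9 culture libraries scaled together: control (gray), DON-treated (purple) and Gln-free (green); points are libraries and lines group means (n = 3). Rpl22l1 is above control in both treatments, Rpl41 and Rpl37a are lowest without Gln, and Rpl7l1 is lowest after DON.

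Genes that serve the ribosome were read from lists drawn up for the pathway. Beside their counts stand the shares of all genes tested that rose and fell: 33.3% and 34.7% after DON, 34.5% and 34.9% without Gln, and 33.8% and 35.0% between treatments. Of 36 ribosome biogenesis factors, 21 rose and 5 fell after DON, and 29 rose and 4 fell without Gln. Nle1 and Mdn1, which act on large subunit precursors, rose most after DON, by 1.31 ± 0.109 and 1.05 ± 0.119 on the log2 scale, and Nop58, a core protein of box C/D snoRNPs, rose most without Gln, by 1.58 ± 0.121. Ltv1, a small subunit assembly factor, fell by 0.62 ± 0.119 after DON and rose by 0.79 ± 0.103 without Gln, and the snoRNP pseudouridine synthase Dkc1 fell by 0.51 ± 0.108 and rose by 0.52 ± 0.103. Between the 2 treatments, 13 of the 36 were higher and 16 lower after DON. In DON-treated cells Nop58 was 1.51 ± 0.061 lower on the log2 scale than in Gln-free cells.

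Of 11 measured subunits and factors of RNA polymerase I, which makes ribosomal RNA, 5 rose and 2 fell after DON, where 33.3% and 34.7% of all genes did, and 6 rose and 2 fell without Gln, where 34.5% and 34.9% did. Taf1d, of the promoter selectivity factor, rose in both, by 1.94 ± 0.169 and 2.17 ± 0.179. Taf1a, of the same factor, rose by 0.67 ± 0.149 after DON and 2.16 ± 0.141 without Gln. Ubtf, which binds ribosomal DNA, held 7621, 7810 and 6989 normalized counts in controls and 3821, 4237 and 4131 after DON, a fall of 0.88 ± 0.0875 on the log2 scale, and rose by 0.43 ± 0.08 without Gln.

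Other TOP mRNAs are controlled through the same tract. Of 16 listed, 9 rose and 1 fell after DON, 4 rose and 9 fell without Gln, and against Gln-free cells 13 were higher in DON-treated cells and 0 lower. The elongation factor Eef2 rose by 1.00 ± 0.137 after DON, from 166777, 175443 and 132995 to 322963, 319596 and 303695 normalized counts. The initiation factor Eif4b fell by 0.85 ± 0.0822 without Gln, and Eif3e rose in both treatments, by 0.61 ± 0.104 and 0.56 ± 0.103. Without Gln these counts also depended on the scaling: 5 rose and 5 fell with quantile normalization, beside 69.7% of all genes called in either direction. A separate list of 6 elongation factors shares Eef2 with the 16 TOP mRNAs. Of these 6, 3 rose and 1 fell after DON, and 0 rose and 3 fell without Gln (2 and 1 with quantile normalization). The faller after DON among the 6 was Eif5a, which is not among the 16 TOP mRNAs. It changed by -1.15 ± 0.101, from 51671, 51081 and 42732 to 22574, 21207 and 21350 normalized counts.

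Of 14 regulators of TOP mRNAs, 7 rose and 5 fell after DON (33.3% and 34.7% of all genes), and 9 rose and 5 fell without Gln (34.5% and 34.9%). The mTORC1 inhibitors did not move together: Sesn2 rose by 1.41 ± 0.102 after DON and 1.26 ± 0.0987 without Gln, and Ddit4 fell, at -2.01 ± 0.149 and -2.97 ± 0.103. With 1 library left out, Tsc2 was also lower, at -0.561 to -0.383 after DON and -0.95 to -0.787 without Gln. Eif4ebp1, a repressor of cap-dependent translation, rose by 1.19 ± 0.104 and 0.46 ± 0.0984. Larp1b, a relative of LARP1, fell by 0.69 ± 0.117 after DON and rose by 0.77 ± 0.104 without Gln. Of 5 ribosomal proteins outside the member names, 4 rose after DON and 1 fell without Gln. Rack1, on the small subunit, rose by 0.52 ± 0.128 and fell by 0.49 ± 0.113.

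Sequence features around the start divided the members little after DON. Members with a run of at least 8 pyrimidines in the 30 bases shown above had a median log2 fold change of 0.44 after DON, and the 35 without one 0.40. Without Gln the medians were 0.17 and -0.14, and between the treatments 0.31 and 0.48. The 30 members that hold a snoRNA within the gene on the same strand had medians of 0.38 after DON and -0.09 without Gln, and the other 49 had 0.42 and 0.04. Across the 79 members, which share their libraries and are not independent, the log2 fold change had a Spearman correlation with transcript GC content of -0.25 after DON and -0.26 without Gln, beside -0.17 and -0.34 over all genes with a GC value.

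The last comparison asked whether DRP-104 changed these genes in orthotopic tumors. Of the 79 members, 0 passed the test in limma, 0 in edgeR and 0 in DESeq2, and 0 had an unadjusted p under 0.05 in limma. Over all 15454 genes tested limma called 0.0% after adjustment, edgeR 0.0% and DESeq2 0.362%. In limma 5.01% of them had an unadjusted p under 0.05. The median log2 fold change of the members was 0.15, 0.13 for the large and 0.19 for the small subunit, beside -0.01 over all genes, and values ran from -0.12 to 0.51. In 3 members all DRP-104 tumors lay above all vehicle tumors, beside 4.83% of all genes tested. In bulk tumors, fewer cells of a type and less RNA per cell cannot be told apart.

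The share of reads in ribosomal protein genes was 5.44%, 6.07% and 6.37% in vehicle tumors and 7.81%, 5.68% and 6.57% in DRP-104 tumors. The groups overlapped, and the highest value belonged to DRP-104 tumor 1, in which 6.42% of reads were mitochondrially encoded, beside 2.20% to 3.19% in the other 5 tumors. Without it the median log2 fold change of the members was 0.02. Leaving out vehicle tumor 1 gave 0.05, and leaving out DRP-104 tumor 2 gave 0.25. The columns of the FPKM table could be tied to a group but not to a library, and there the median was -0.14 (-0.11 large, -0.18 small). On FPKM 17 of the 79 members were above 0 and 62 below, while on normalized counts 67 were above 0 and 12 below. The cause of this disagreement was not tested. On FPKM, 0 members passed the test in limma, beside 0.0% of all 14203 genes tested.

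Rps12 had the highest value in tumors. It held 21564, 24146 and 28778 normalized counts with vehicle and 57179, 24427 and 30841 with DRP-104. The groups overlapped and tumor 1 stood alone, with a log2 fold change of 0.51 ± 0.319 (adjusted p = 0.916). Rpl26 showed the same picture at 0.43 ± 0.269, with 23303 in tumor 1 and 9719 to 13164 in the other 5. The lowest were Rps28 (-0.12 ± 0.191) and Rps29 (-0.09 ± 0.177). Rpl22l1 held 1285, 1124 and 1228 with vehicle and 1300, 1096 and 1249 with DRP-104, nearly the same range, with a log2 fold change of 0.00 and a 95% confidence interval of -0.32 to 0.32. Rpl3 had 0.15 (-0.29 to 0.60) and Rpl7l1 -0.05 (-0.39 to 0.29).

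In the tumors the 8 summed fibroblast markers, all detected in every tumor, were at 1607 to 3415 RPM with vehicle and 787 to 1260 with DRP-104, and the 5 endothelial markers at 95.1 to 113.7 and 61.8 to 82.7. Of these 8 and 5 genes, 0 passed the test in limma, beside 0.0% of all genes tested. The paper stained tumors for cancer-associated fibroblasts and their subtypes and reported no significant change with DRP-104. Macrophage markers overlapped (475.7 to 625.1 and 336 to 700.1). The part of these cell types in the values of the ribosomal protein genes was not tested.

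The effect of DRP-104 in tumors differed from that of DON in cells for 8 members, by the test of the difference itself. It was more negative in tumors for 7 and more positive for 1, against 14.0% and 19.1% of all 15070 genes tested. For Rpl22l1 the difference was -1.86 ± 0.179 on the log2 scale (adjusted p = 8.52e-06) and for Rpl3 -0.82 ± 0.228 (adjusted p = 0.0138). For Rpl7l1 it was 0.50 ± 0.16 (adjusted p = 0.029), and Rps25, the other at the high end, had 0.33 ± 0.272 (adjusted p = 0.383). Without DRP-104 tumor 1, 20 members were more negative and 1 more positive in tumors, beside 34.8% of all genes called in either direction. Agent, exposure time and setting all differ between the 2 effects and cannot be told apart.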

How the data were processed

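RNA of 15 libraries, 3 in each of 5 groups, was sequenced, aligned with HISAT2 and normalized with DESeq2 by the authors. The submitters' notes also list STAR 2.5, CASAVA and GRCm39 without a role, and the counting tool and its use of strand are not given in the sources used here. The deposited signal values are counts scaled in each library by a single size factor, as tested on the tables: whole reads came back for at least 99.9946% of values in each library, within a tolerance of 0.0051. The deposited FPKM values, scaled by the authors for length and depth, cover tumors only. Depth limits only low members such as Rps10.

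Genes with a mean of at least 10 were tested with limma 3.58.1 (R 4.3.3) on log2(value + 1), with Benjamini-Hochberg adjustment over all genes tested and a threshold of 0.05. Fold changes are on the log2(value + 1) scale, which understates changes of low genes. DON and Gln-free cells were compared after joint scaling of the 9 culture libraries. The effect in tumors minus that in cells was an interaction contrast. FPKM were tested in the same way with a mean of at least 0.5. edgeR 4.0.16 and DESeq2 1.42.0 on the recovered reads, other scalings, filters, pseudocounts and left-out libraries were alternatives. The fits of DON against control cells and of DRP-104 against vehicle tumors were tested on simulated data. The other comparisons, the interaction contrast among them, were not. An exact permutation test of 3 against 3 libraries cannot go below p = 0.1 and was not used.

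Members and gene lists were chosen with earlier results of these data known. Named members were the highest and lowest of each subunit in each comparison, paralogs, members called in opposite directions, those with the highest and lowest FPKM, and Rpl5, Rpl11, Rps6 and Rplp0. From each pathway list, genes at either end were named. One member is counted with the rest but not described, and one allele of the line is not reported here.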

Additional observations from a re-analysis of the deposited data

Results flagged for a closer look

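In 8 ribosomal protein genes the change with DRP-104 in tumors differed from the change with DON in cells, by limma's test of the difference itself (adjusted p under 0.05), 7 of them lower and 1 higher of 79. Over all 15070 genes tested 14.0% were lower and 19.1% higher. The difference, tumors minus cells on the log2 scale, was -1.86 for Rpl22l1, -0.82 for Rpl3, -0.68 for Rps9, -0.66 for Rpl23, -0.64 for Rpl10a, -0.61 for Rps18 and -0.58 for Rpl30. For Rpl7l1, which fell in cells after DON, it was 0.50. Their adjusted p ran from 8.52e-06 for Rpl22l1 to 0.0484 for Rps18. Agent, exposure time and setting cannot be told apart in this difference. With a block on the numbers of the columns, Rps9, Rpl10a, Rps18 and Rpl30 no longer passed.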

How the results depend on the processing

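The 3 culture comparisons gave close counts of members called in edgeR and DESeq2: 55 higher and 1 lower after DON in each, 25 and 21 without Gln, and 70 and 4 between treatments. Of all genes tested, edgeR called 68.1%, 69.1% and 68.7% in either direction, and DESeq2 67.0%, 68.1% and 67.5%. At an adjusted p under 0.01 the counts were 44 and 1, 18 and 17, and 65 and 4. The shares of all genes were then 56.8%, 59.1% and 58.6%. Quantile normalization gave 40 higher without Gln and 8 lower between treatments, beside 69.7% and 68.3% of all genes called in either direction. In tumors 0 members passed under every setting run, beside 0.0% to 0.362% of all genes. For tumors minus cells, 23 passed with quantile normalization and with RPM scaling (0 higher and 23 lower in each), and 1 passed at 0.01 (0 higher, 1 lower). Leaving out 1 library gave 1 to 4 lower after DON (4 without control 3) and 17 to 39 lower without Gln (39 without control 3). The shares of all genes called in either direction were then 61.6% to 71.3% and 63.2% to 72.4%. For tumors minus cells it gave 3 to 21 (0 to 1 higher, 3 to 20 lower), 3 without DON library 2 and 21 without DRP-104 tumor 1. There 26.6% to 36.3% of all genes were called.

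The large minus small subunit median after DON was 0.057 with quantile normalization and 0.052 to 0.113 with 1 library left out. It was 0.022 without Gln and 0.012 between treatments with quantile normalization, and -0.018 to 0.016 between treatments with 1 library left out. In tumors it was 0.07 in the FPKM table and -0.113 to -0.023 with 1 library left out. The cause was not tested.

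Directions turned mostly for members that had not passed the test. After DON, quantile normalization gave 0.092 for Rpl15, 0.088 for Rps2, 0.085 for Rps21 and 0.105 for Rps25, and RPM scaling gave 0.052 for Rpl15, 0.135 for Rps21 and 0.078 for Rps25. Without Gln, quantile normalization gave 0.036 for Rpl3, 0.221 for Rplp0, 0.035 for Rps27 and 0.000 for Eef1a1, of which Rplp0 and Eef1a1 had fallen, and RPM scaling gave 0.025 for Rps27 and 0.063 for Rps27l. Between treatments, quantile normalization gave -0.13 for Rps12 and -0.164 for Rps16. In tumors the FPKM table gave -0.254 for Rpl22l1, -0.133 for Rpl26, -0.049 for Rpl3, -0.221 for Rps12 and 0.082 for Rps28, and Rpl22l1 had -0.013 with TMM factors and -0.015 with RPM scaling. With 1 library left out, values ran from -0.117 to 0.146 for Rpl37a, -0.098 to 0.079 for Rps21 and -0.177 to 0.041 for Rps25 after DON, from -0.19 to 0.01 for Rps27 and -0.103 to 0.037 for Rps27l without Gln, and from -0.052 to 0.074 for Rpl22l1, -0.135 to 0.038 for Rpl7l1 and -0.222 to 0.075 for Rps29 in tumors.

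With the replicate number as a block, 0 members passed in tumors, and 68 were higher and 4 lower between treatments, the counts without it. Of all genes, 0.0% and 69.0% passed. An added block on the number in the column headings, chosen after seeing the data and not tied to samples for the controls, gave 56 higher and 1 lower after DON, 24 and 22 without Gln, and 4 called for tumors minus cells (1 higher, 3 lower). The shares of all genes called with it were 68.0%, 67.6% and 27.0%. Deviations of same-numbered libraries correlated at -0.274, 0.038 and -0.365 in tumors, -0.028, 0.001 and 0.083 between treatments, 0.023, 0.003 and 0.033 for DON and controls, and 0.027, -0.025 and -0.032 for Gln-free cells and controls, so the numbers were not taken to pair the samples.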

Other observations

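Rps4l, a paralog of the small subunit gene Rps4x that fell under the mean required of members, was counted in all 6 tumors and in 1 of the 9 culture libraries. It held 51.8, 64.0 and 84.7 normalized counts in vehicle tumors and 42.8, 45.0 and 16.7 in DRP-104 tumors. Every DRP-104 value lay below every vehicle value, but the log2 fold change of -1.02 did not pass the test (limma, adjusted p = 0.916). The share of all genes with such a fall is not given here. In the opposite direction, groups stood apart in 4.83% of all genes tested, so this pattern alone says little about Rps4l. It was at 0 in 8 culture libraries, a count that allows up to 3 reads in each, and at 2.39 normalized counts in DON library 1.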
